A study of Mus musculus with 26 samples.

Results

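The 10 genes described here belong to the piRNA pathway of the mouse germ line: the PIWI genes Piwil1, Piwil2 and Piwil4, the processing enzymes Mov10l1 and Pld6, the scaffold genes Mael and Asz1, and the Tudor genes Tdrd1, Tdrd9 and Tdrkh. They were chosen by name as known members of the pathway, out of 54589 gene symbols in the 3 deposited tables. Earlier results of these data were known when they were chosen. All 10 were listed in both tables of cultured cells and 9 in the testis table, where Piwil4 was not listed.

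Tex10 was depleted or overexpressed in this study while germ cell-like cells were induced in culture, and was conditionally deleted in mice. RNA-seq was done on 26 libraries. The first table held 10 libraries of 129Sv/J cells: 2 of untreated epiblast-like cells (EpiLCs), and 2 each of primordial germ cell-like cells (PGCLCs, cultured counterparts of the embryo's first germ cells) at day 2 and day 4 of induction with either 500 nM dTAG13, a compound that marks a tagged protein for degradation, or its solvent DMSO. The second table held 12 libraries of untreated 129Sv/J cells, in which 1 empty-vector line and 2 clonal Tex10 overexpression lines were each sampled once as EpiLCs and once at day 2, day 4 and day 6. The third table held 4 libraries of testis from untreated C57BL/6N mice, 2 wildtype and 2 with the Tex10 conditional knockout (cKO). The age of the mice, the deleting Cre line, the deleted exons and the tagged cell line were not given in the sources used here. Nothing says whether replicates came from separate cultures or animals, so p-values measure only the spread between these libraries, which may be technical.

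piRNAs are small RNAs that load onto PIWI proteins and direct the silencing of transposons in germ cells. In fetal male germ cells PIWIL2 and PIWIL4 act together, PIWIL4 entering the nucleus to direct DNA methylation. PIWIL1 is a partner of the abundant piRNAs of pachytene spermatocytes and round spermatids. The precursors are cut and trimmed at mitochondria and in germ granules, where Tudor proteins hold the PIWI proteins beside the processing enzymes.

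Promoters are shown first for 4 members whose windows share a sequence. The RefSeq promoter table (GRCm38.p6; 300-base windows that end just past a gene's start) held 13 windows for 9 of the 10 members, and the first listed window is printed. The capitals mark CACGTG, the E-box bound by basic helix-loop-helix factors, which reads the same on both strands. The windows are chr5:128735996-128736295 on the plus strand for Piwil1, chr15:88982744-88983043 on the plus strand for Mov10l1, chr1:166238695-166238994 on the minus strand for Mael and chr19:56825959-56826258 on the plus strand for Tdrd1.
Piwil1: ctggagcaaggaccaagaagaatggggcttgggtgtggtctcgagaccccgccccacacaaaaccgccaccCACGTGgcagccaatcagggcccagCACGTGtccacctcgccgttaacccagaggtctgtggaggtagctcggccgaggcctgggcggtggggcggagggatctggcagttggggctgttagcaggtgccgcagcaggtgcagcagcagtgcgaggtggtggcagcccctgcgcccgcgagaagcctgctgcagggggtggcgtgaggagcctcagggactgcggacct
Mov10l1: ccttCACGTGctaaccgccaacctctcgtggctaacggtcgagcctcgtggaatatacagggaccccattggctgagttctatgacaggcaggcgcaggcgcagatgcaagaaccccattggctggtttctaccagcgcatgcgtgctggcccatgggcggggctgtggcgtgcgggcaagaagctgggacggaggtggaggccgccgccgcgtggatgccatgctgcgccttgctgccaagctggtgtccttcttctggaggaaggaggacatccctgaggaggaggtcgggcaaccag
Mael: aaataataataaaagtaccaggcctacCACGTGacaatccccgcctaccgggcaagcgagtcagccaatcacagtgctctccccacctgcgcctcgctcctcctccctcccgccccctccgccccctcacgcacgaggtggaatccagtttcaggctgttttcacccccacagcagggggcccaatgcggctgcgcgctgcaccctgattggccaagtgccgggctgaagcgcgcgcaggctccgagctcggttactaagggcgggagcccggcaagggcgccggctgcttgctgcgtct
Tdrd1: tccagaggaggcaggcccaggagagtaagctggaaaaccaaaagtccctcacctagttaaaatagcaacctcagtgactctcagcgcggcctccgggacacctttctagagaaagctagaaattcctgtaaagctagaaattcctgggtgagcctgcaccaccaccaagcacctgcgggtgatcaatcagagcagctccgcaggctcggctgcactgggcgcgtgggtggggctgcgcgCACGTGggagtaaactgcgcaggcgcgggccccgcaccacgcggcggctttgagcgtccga

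The hexamer was present in at least 1 window of 6 of the 9 members, Piwil1, Mov10l1, Mael, Pld6, Tdrd1 and Tdrd9, against 8.09% of all 27025 genes in the table. The windows of Piwil4, Asz1 and Tdrkh held no copy, and Piwil2 had no window. Counted in bases from the RefSeq start of each printed window, the first copy began at -246 in Mov10l1, -223 in Mael, -179 in Piwil1 and -11 in Tdrd1. The RefSeq start of Piwil1 lies inside the GENCODE span given below, which begins at a farther upstream transcript. CACGTG itself holds a CpG, and the 7 member windows with it had 10 to 25 CpGs, beside a median of 7 over all windows. Among the 14247 windows with at least 10 CpGs, 10.9% held the hexamer. GCGGGAA, searched on both strands as the core of an E2F site, was in none of the 9 members' windows and in 5.29% of all genes. CNGTTG, searched on both strands as a MYB core, was in the windows of 3 members, Piwil1, Piwil4 and Pld6, and in 38.3% of all genes. A match describes the window only.

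Values are CPM, read counts scaled to a common TMM-normalised library size, whose low values were whole multiples of 1 read. The reads recovered per library ran from 5055362 to 8564563, so that 3 reads, taken as the floor of detection, corresponded to a CPM between 0.299 and 0.560. These limits cover counting error only. Log2 fold changes are from limma on log2(CPM + 1), which understates the change of low genes, and a gene is called changed below where its Benjamini-Hochberg adjusted p was under 0.05. Genes with a mean under 1 CPM in a table were not tested. The Tex10 transcript checked the labels where it could. In testis it was 79.1 and 44.1 CPM in wildtype and 29.8 and 27.3 in cKO (log2 fold change -1.02, limma adjusted p = 0.00318), and it was higher in the overexpression clones than in the empty-vector line at all 4 stages (log2 fold change 1.47, limma adjusted p = 2.14e-11). dTAG13 acts on a tagged protein, whose level the files do not give, so the transcript there does not check the depletion. The Tex10 transcript was 106 and 113 CPM with DMSO and 104 and 94.0 CPM with dTAG13 at day 2 (not called), and fell at day 4 from 110 and 105 to 76.8 and 72.8 CPM (log2 fold change -0.51, limma adjusted p = 0.000576). Day 4 DMSO replicate 2 stood apart from the other controls of its table, with 28687 genes above 0 against 23453 to 23999 in the other 5. The 4 dTAG13 libraries also had more genes above 0, from 26078 to 28809. The part of this in the members' values was not tested, and called members at day 4 are given without that library as well. The 9 early germ cell markers listed for the cultures (Prdm1, Prdm14, Tfap2c, Dppa3, Nanos3, Dnd1, Kit, Dazl and Sycp3) were all detected in both tables, and their summed CPM was 82.6 to 85.4 in untreated EpiLCs and 257 to 328 in the DMSO-treated PGCLCs.

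The first question was how Piwil1, grouped here as pachytene-type, and Piwil2 and Piwil4, grouped as fetal-type, stood in the knockout testis. These are group names only, since Piwil2 was also expressed in testis, at 168 to 191 CPM. Neither Piwil1 nor Piwil2 was called changed, and the ratio between them was about the same in cKO and wildtype libraries. Piwil1 (chr5:128702524-128755474, plus strand) was 319 and 310 CPM in wildtype and 267 and 303 CPM in cKO. Both cKO libraries lay below both wildtype libraries, the nearer by a few percent only. The log2 fold change was -0.15 ± 0.12 (SE, 2 libraries against 2), with a 95% confidence interval from -0.40 to 0.11 and a limma adjusted p of 0.377. Piwil2 (chr14:70372477-70429383, minus strand) was 191 and 173 CPM in wildtype and 174 and 168 CPM in cKO. The groups overlapped, and the log2 fold change was -0.09 ± 0.12, with an interval from -0.34 to 0.16 and a limma adjusted p of 0.589.

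The log2 ratio of Piwil1 to Piwil2 CPM was formed within each library, so that transcript length drops out of its difference between groups, though not out of the ratio itself. It was 0.73 and 0.84 in wildtype and 0.62 and 0.85 in cKO, so that the cKO libraries lay on either side of the wildtype pair. The mean difference was -0.05 (exact two-sided permutation test p = 1, where 2 libraries against 2 cannot give less than 0.333), and it ranged from -0.17 to 0.06 when each library was left out in turn. The ratio to Piwil4 (chr9:14696230-14740733, minus strand) could not be formed. The testis table held only genes whose value in the second-highest library was at least 0.975 CPM, so Piwil4 has no testis value here. The ratio thus compares Piwil1 with Piwil2 only, and not a fetal with a pachytene stage. Per kilobase of exon, Piwil1 stood at 72.2 ± 1.40 CPM (SD, n = 2) in wildtype testis and Piwil2 at 34.5 ± 2.38.

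Ordered by CPM per kilobase of exon, wildtype testis had Mael highest at 264 ± 55.3 (SD, n = 2), followed by Piwil1, then Pld6 at 60.4 ± 5.91 and Tdrkh at 50.5 ± 12.96. Pld6 and Tdrkh differed by less than the SD of Tdrkh. Below Piwil2 came Tdrd1 at 28.2 ± 0.846, Tdrd9 at 13.4 ± 0.973, Mov10l1 at 7.55 ± 1.07 and Asz1 at 2.37 ± 0.264. Of the 9 listed members, the most and the least abundant were both scaffold genes, Piwil4 having no value to place.

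**Figure D1:**
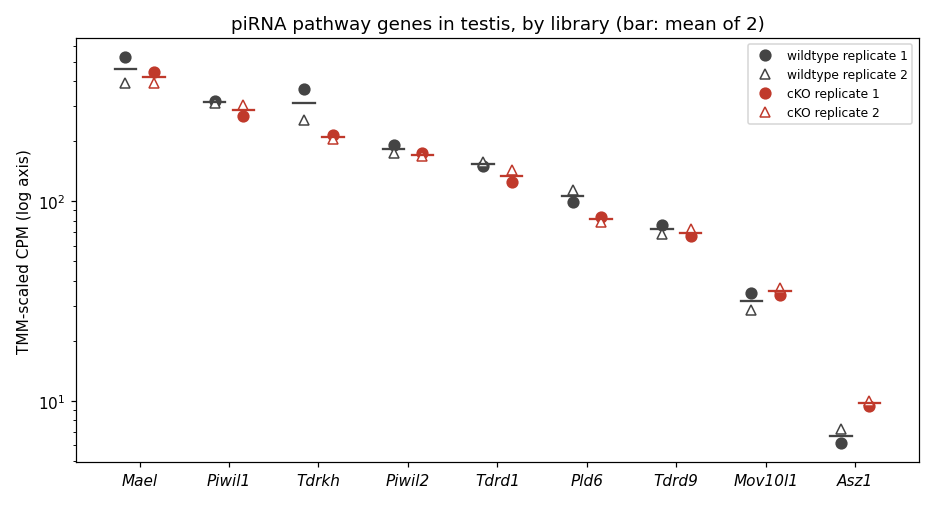
CPM (log axis) of the 9 listed piRNA pathway genes in each of the 4 testis libraries, with a bar at the mean of each pair; circles are replicate 1 and triangles replicate 2, wildtype in grey and cKO in red. The cKO symbols of Tdrkh (215 and 204) and Pld6 (83.4 and 78.7) lie below both wildtype symbols, and those of Asz1 (9.47 and 10.04) lie above them.

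Of the 9 members tested in testis, 2 were called and both were lower in cKO, beside 29.1% of all 20658 genes tested (16.1% higher and 13.1% lower). The median log2 fold change was -0.12 over the 9 members and 0.01 over all genes tested. Pld6 (chr11:59783897-59787645, minus strand), a mitochondrial nuclease-like enzyme that generates piRNA ends, was 98.8 and 113 CPM in wildtype and 83.4 and 78.7 CPM in cKO. The groups did not overlap. Pld6 fell by 0.38 ± 0.13 on the log2 scale (limma adjusted p = 0.0374), and the call was lost in 5 of 12 alternative analyses, among them leaving out either cKO library (adjusted p = 0.104 without replicate 1 and 0.179 without replicate 2) or wildtype replicate 2 (adjusted p = 0.178).

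Tdrkh (chr3:94413273-94434668, plus strand), the mitochondrial Tudor protein that brings PIWI proteins to their trimming enzyme, was 366 and 254 CPM in wildtype and 215 and 204 CPM in cKO. Both cKO libraries were below both wildtype libraries, and wildtype replicate 1 stood well above the other. Tdrkh fell by 0.54 ± 0.15 on the log2 scale (limma adjusted p = 0.0158), but without wildtype replicate 1 the change was -0.27 (adjusted p = 0.108). Its exons share 2255 bases, or 36.7% of its exonic length in GENCODE M21, with Oaz3 on the opposite strand. Oaz3, a spermatid gene, was 810 and 864 CPM in wildtype and 500 and 599 CPM in cKO. Whether counting used the strand is not stated, so reads of Tdrkh and Oaz3 in testis cannot be told apart with certainty and the Tdrkh value is uncertain. Without Tdrkh, 1 of 8 members was called.

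The authors' deposited table gave the same directions, with a log2 fold change of -0.56 (FDR 0.00642) for Tdrkh and -0.39 (FDR 0.0253) for Pld6. The other 5 tested members had smaller or less certain differences. Asz1, which anchors germ granules to mitochondria, was 6.16 and 7.22 CPM in wildtype and 9.47 and 10.04 CPM in cKO. Its groups did not overlap, with a log2 fold change of 0.49 that did not pass the test (limma adjusted p = 0.176; 95% interval from -0.07 to 1.04). Mov10l1, the helicase that feeds precursors into processing, had a log2 fold change of 0.16 (34.8 and 28.4 CPM in wildtype, 34.1 and 36.6 CPM in cKO). Mael, a germ granule protein needed for transposon silencing, had -0.12, Tdrd1, the Tudor partner of PIWIL2, had -0.20, and Tdrd9, a Tudor protein with a helicase domain, had -0.06, none past the test. The Mael value turned on the wildtype libraries, at 0.09 without wildtype replicate 1 and at -0.34 (limma adjusted p = 0.0408) without wildtype replicate 2.

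Testis RNA was taken from mixed cells, and fewer cells of a type and less RNA per cell cannot be told apart. Every marker of the 8 listed testis cell types was present in the table. The summed CPM of 9 meiotic prophase markers was 387 to 410 in wildtype and 380 to 399 in cKO, with 2 genes called higher and 1 lower. Spermatid markers were lower: the sum of 8 round spermatid markers was 1931 to 2003 in wildtype and 1311 to 1416 in cKO (6 of 8 called lower), and that of 8 elongating spermatid markers was 22717 to 25554 and 16187 to 16863 (7 of 8 called lower). Summed markers of the somatic cells were higher. The Sertoli sum was 491 to 549 in wildtype and 1376 to 1611 in cKO (8 of 8 called higher), and the Leydig sum was 242 to 348 and 596 to 982 (6 of 6 called higher). The peritubular sum was 34.1 to 40.2 in wildtype and 59.5 to 73.6 in cKO (2 of 4 called higher), and the macrophage sum was 47.9 to 55.6 and 86.5 to 118 (3 of 5 tested called higher). Spermatogonial markers summed to 166 to 181 in wildtype and 246 to 270 in cKO (5 of 9 called higher). The summed CPM of the 9 piRNA members was 1768 and 1502 in wildtype and 1418 and 1405 in cKO, which is 0.867 and 0.860 of the wildtype mean in the cKO libraries. The place of this sum between the marker groups is a measured value in which abundant members weigh most. It includes Tdrkh, at 204 to 366 CPM over the testis libraries, whose value is uncertain. The part of cell composition in the members' values was not tested.

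**Figure D2:**
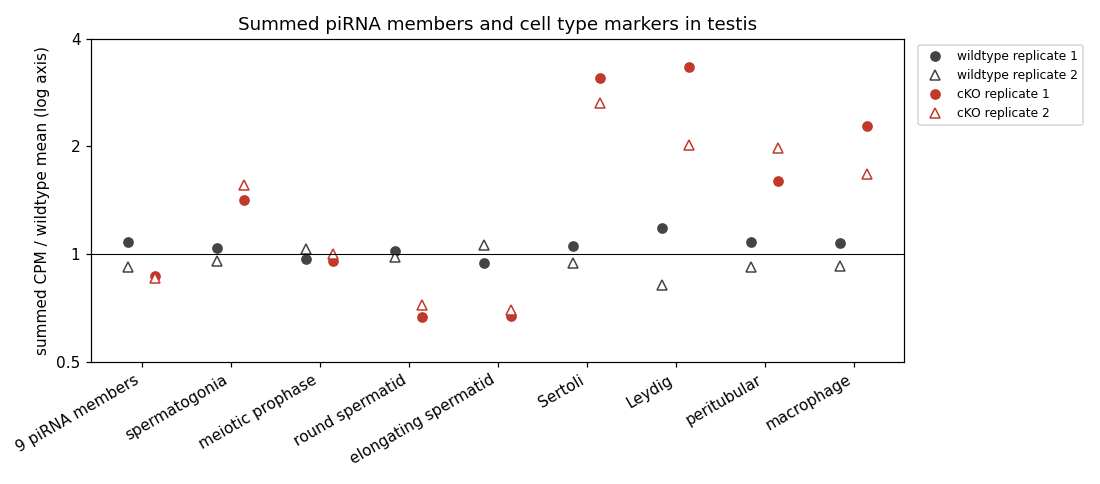
Summed CPM of the 9 piRNA members and of 8 marker lists in each testis library, divided by the wildtype mean of that list (log axis); circles are replicate 1 and triangles replicate 2, wildtype in grey and cKO in red. The piRNA members (0.867 and 0.860 in cKO) lie near meiotic prophase markers (0.955 and 1.00), above spermatid markers (0.667 to 0.720) and below Sertoli markers (3.10 and 2.65). The members' sum includes Tdrkh, whose value is uncertain.

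The other piRNA pathway genes, a list of 22 that cover nuclear effectors, further Tudor proteins and transcriptional regulators, had 21 members in the testis table, Nanos2 not being listed. Of these, 5 were called lower, 1 was called higher and 15 were not called, with a median log2 fold change of -0.13. The share called is near the 29.1% of all genes. Dnmt3l, a cofactor of piRNA-directed DNA methylation in fetal germ cells, fell by 1.40 (limma adjusted p = 0.00129), from 16.3 and 14.4 CPM in wildtype to 5.71 and 4.70 CPM in cKO. Dnmt3c, the methyltransferase of young transposon promoters, was higher by 1.36 (limma adjusted p = 0.0124). Tdrd6, Tdrd7 and Rnf17, Tudor genes whose proteins sit in the granules of spermatocytes and spermatids, fell by 0.81, 0.65 and 0.65, and Tex15, which acts in piRNA-directed methylation, is the remaining gene called lower. The Tudor genes Tdrd1 and Tdrd9, both members, and Tdrd5 and Tdrd12 of the list were not called, at -0.20, -0.06, -0.10 and -0.07. Mybl1, the transcription factor that switches on pachytene piRNA genes and Piwil1, had a log2 fold change of -0.16 and was not called.

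The second question was when the members start to be expressed as EpiLCs become PGCLCs. In the controls of the dTAG13 experiment, Piwil2, Piwil4 and Mov10l1 were higher at day 2 than in EpiLCs, and none of the members was called between day 2 and day 4. EpiLCs were untreated and the PGCLCs carried DMSO, so stage and solvent cannot be told apart in this step. Piwil1, Asz1 and Tdrd9 had a mean under 1 CPM and were not tested, leaving 7 of 10 members.

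Piwil2 was 5.07 and 6.87 CPM in EpiLCs, 15.7 and 14.7 CPM at day 2 and 14.2 and 16.7 CPM at day 4. Every PGCLC library was above both EpiLC libraries, while day 2 and day 4 overlapped. The log2 fold change from EpiLC to day 2 was 1.23 ± 0.20 (limma adjusted p = 0.000103), and it kept its call under all 13 alternatives run. Piwil4 was 0.634 and 0.554 CPM in EpiLCs (5 reads in each library), 2.64 and 2.31 CPM at day 2, and 1.18 and 3.09 CPM at day 4. It rose by 1.12 ± 0.33 to day 2 (limma adjusted p = 0.0149), a call that was lost when any 1 of the 4 libraries was left out (adjusted p = 0.0530 to 0.0962). The added 1 CPM shrinks the Piwil4 change, which was 2.09 with DESeq2, where it was also called, and 2.04 (FDR 0.0373) in the authors' deposited table. Mov10l1 (chr15:88982909-89055152, plus strand) was 2.53 and 3.21 CPM in EpiLCs, 5.53 and 7.87 CPM at day 2 and 8.48 and 7.77 CPM at day 4. It rose by 0.98 ± 0.28 to day 2 (limma adjusted p = 0.0122), a call lost without EpiLC replicate 1 (adjusted p = 0.103) or day 2 replicate 2 (adjusted p = 0.149). From EpiLC to day 4 its rise was 1.24 ± 0.28 (limma adjusted p = 0.00149), and this call was kept under all 14 alternatives.

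Of the 7 tested members, the 3 called to day 2 were all higher, beside 26.2% of 16605 genes called (11.5% higher and 14.7% lower), and the members' median log2 fold change was 0.73 beside -0.03 over all genes. From day 2 to day 4, limma called 0 members, beside 5.52% of all genes (2.44% higher and 3.08% lower). At an unadjusted p under 0.05 there was 1 member, Tdrd1 at -0.69, and edgeR and DESeq2 called 0. From EpiLC to day 4 the same 3 members were called higher, beside 34.9% of all genes (16.8% higher and 18.1% lower). Piwil4 was then at 0.91 (limma adjusted p = 0.0381), and at 0.45 (adjusted p = 0.427) without day 4 replicate 2, which held 31 Piwil4 reads against 11 in replicate 1. Leaving out either EpiLC library ended that call as well (adjusted p = 0.113 and 0.154). Without day 4 replicate 2, Piwil2 at 1.13 (adjusted p = 0.00146) and Mov10l1 at 1.30 (adjusted p = 0.00794) were still called.

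The remaining tested members were not called to day 2, which does not show that their course differed. Pld6 was 6.21 and 9.20 CPM in EpiLCs and 5.53 and 6.65 CPM at day 2, and Mael (chr1:166201201-166238747, minus strand) was 3.42 and 3.77 CPM in EpiLCs and 2.89 and 1.63 CPM at day 2. Their log2 fold changes were -0.28 and -0.52. Tdrd1 was at 0.73 (95% interval from 0.07 to 1.40, limma adjusted p = 0.0994) and Tdrkh at 0.65 (from -0.10 to 1.40, limma adjusted p = 0.202). Piwil1 stayed between 0.760 and 1.07 CPM over the 6 control libraries, with 6 to 10 reads in each. Asz1 reached at most 0.996 CPM in these controls, and Tdrd9 was uneven, at 0 and 3 reads in EpiLCs, 5 and 1 at day 2 and 0 and 17 at day 4, the last (1.69 CPM) in the library that stood apart. With dTAG13 Tdrd9 had 16 and 11 reads at day 2 and 11 and 7 at day 4, and its table mean kept it out of the main fit. With only the day 2 groups fitted, it was called beside Tdrd1. It passed the filter there only through its dTAG13 values, so that call is no support for a change. With no filter, 0 members were called at day 2. The authors' deposited table gave Tdrd9 a log2 fold change of 2.31 (FDR 0.361) at day 2. Asz1, also outside the main fit, was lower with dTAG13 in reads. Its reads at day 2 were 0 and 1 against 7 and 4 with DMSO. At day 4 they were 1 and 3 against 6 and 10. The authors' deposited table gave Asz1 log2 fold changes of -3.06 (FDR 0.143) and -1.38 (FDR 0.660) for dTAG13 at these days. Per kilobase of exon, the day 4 DMSO order was Pld6 at 5.53 CPM, Piwil2 at 2.92, Mov10l1 at 1.94 and Mael at 1.13, and the other 6 members lay between 0.156 and 0.396. In that order Piwil4, at 0.396 ± 0.250 (SD, n = 2), lay below Mael by more than either SD, whereas each neighbouring pair among Piwil4, Tdrkh, Asz1, Tdrd1, Piwil1 and Tdrd9 differed by no more than the larger of their SDs.

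**Figure D3:**
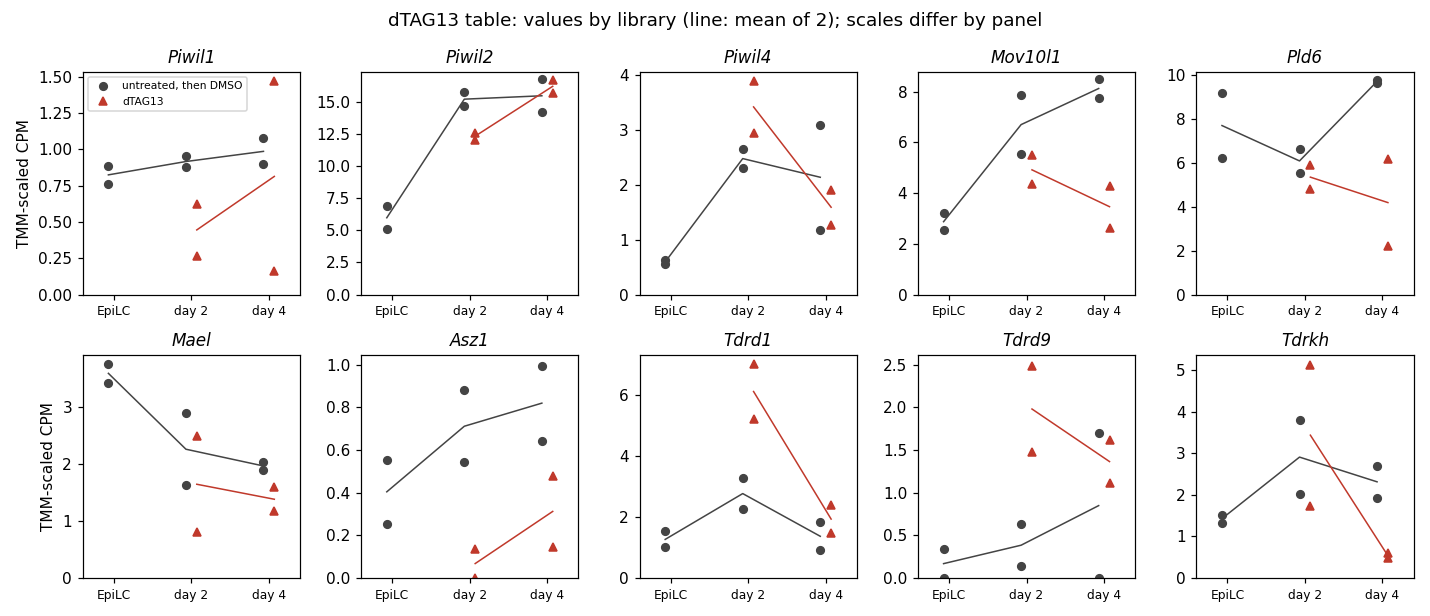
CPM of the 10 members in the 10 libraries of the dTAG13 experiment, by stage; grey circles are untreated EpiLCs and DMSO-treated PGCLCs, red triangles are dTAG13-treated PGCLCs, lines join the means of 2 libraries, and each panel has its own scale from 0. Piwil2 goes from 5.07 and 6.87 in EpiLCs to between 14.2 and 16.7 in the DMSO libraries, and the dTAG13 symbols of Mov10l1, Pld6 and Tdrkh lie below the DMSO symbols at day 4.

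Other pathway genes moved in both directions over the same controls. Of 17 tested genes of the list, 3 were called from EpiLC to day 2 (26.2% of all genes), Rnf17 higher by 0.63 and Dnmt3l and Tcfl5 lower by 2.63 and 0.47. Between day 2 and day 4, 5 of 17 were called and all were lower, beside 5.52% of all genes. They were Tdrd5 at -1.56, Dnmt3l at -1.07, Tex15 at -0.87, Tdrd12 at -0.72 and Tcfl5 at -0.53. Dnmt3l showed the widest range, at 135 and 140 CPM in EpiLCs, 21.5 and 21.3 CPM at day 2 and 8.05 and 11.7 CPM at day 4. Ddx4, the helicase known as a marker of later germ cells, was called from EpiLC to day 4 (0.71, limma adjusted p = 0.0427), where 9 of 17 were called, 4 higher and 5 lower, beside 34.9% of all genes. The widest of these were Dnmt3l at -3.70, Tdrd5 at -1.01, Tcfl5 at -1.003, Tex15 at -0.83 and Rnf17 at 0.77.

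In the empty-vector and overexpression lines the steps could be followed to day 6, with the line as a term in the fit. Piwil2 rose in them as well, but Mov10l1, Mael and Tdrd1 were lower at day 2 than in EpiLCs. The 6 tested members were Piwil2, Mov10l1, Pld6, Mael, Tdrd1 and Tdrkh. Piwil4 was at a mean under 1 CPM here, with 2 to 14 reads in each library. In EpiLCs it was 0.751, 0.746 and 0.687 CPM in the empty-vector line, clone 1 and clone 2. At day 6 it was 0.301, 2.28 and 1.16 CPM (2, 14 and 8 reads), and this difference was not tested.

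Piwil2 was 14.9 CPM in empty-vector EpiLCs and 8.4996 and 9.75 CPM in EpiLCs of clones 1 and 2. It was 15.7, 18.9 and 12.4 CPM at day 2 and 27.1, 32.1 and 26.1 CPM at day 4, and at day 6 it was 24.8, 25.2 and 25.2 CPM. All 3 lines ended within a narrow range although they began apart. The log2 fold change was 0.49 ± 0.17 from EpiLC to day 2 (limma adjusted p = 0.0235, lost in 5 of 11 alternatives; 0.19 with adjusted p = 0.5005 without clone 1, and an adjusted p of 0.0532 without clone 2), 0.83 ± 0.17 from day 2 to day 4 (limma adjusted p = 0.000737) and 1.15 ± 0.17 from EpiLC to day 6 (limma adjusted p = 2.18e-06). The later 2 calls were kept under all 11 alternatives.

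Tdrd1 (chr19:56826209-56870012, plus strand) was 11.1, 6.86 and 5.49 CPM in EpiLCs of the empty-vector line, clone 1 and clone 2, 2.01, 3.24 and 1.82 CPM at day 2, and 0.602, 1.30 and 0.582 CPM at day 6. Every EpiLC library was above every later library. Tdrd1 fell by 1.37 ± 0.29 to day 2 (limma adjusted p = 0.000321) and by 2.24 ± 0.29 to day 6 (limma adjusted p = 1.79e-07), calls that held under all 10 alternatives. Mael was 8.41, 5.37 and 3.16 CPM in EpiLCs and 3.02, 1.39 and 1.21 CPM at day 2, lower in each of the 3 lines. It fell by 1.19 ± 0.34 to day 2 (limma adjusted p = 0.00523; 0.0539 without clone 1) and by 0.86 ± 0.34 to day 6 (limma adjusted p = 0.0349, lost in 7 of 10 alternatives; -0.45 with adjusted p = 0.281 without the empty-vector line, and an adjusted p of 0.0769 without clone 1). From day 2 to day 4 Mael was not called over the 3 lines but rose by 1.10 (limma adjusted p = 0.0113) without the empty-vector line.

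Mov10l1 took another course. It was 10.7, 4.92 and 4.53 CPM in EpiLCs, 3.30, 2.77 and 4.24 CPM at day 2, 4.598, 9.86 and 8.96 CPM at day 4 and 7.38, 10.3 and 9.32 CPM at day 6. It fell by 0.72 ± 0.28 to day 2 (limma adjusted p = 0.0372), a call lost without the empty-vector line (-0.36, adjusted p = 0.312) and without clone 1 (-0.76, adjusted p = 0.105). It then rose by 0.94 ± 0.28 to day 4 (limma adjusted p = 0.0156), and without clone 1 the rise was 0.65 (adjusted p = 0.266), without clone 2 the adjusted p was 0.0918. Without the empty-vector line, Mov10l1 was also called from EpiLC to day 6 (0.91, adjusted p = 0.00498), against 0.45 (adjusted p = 0.184) with it. Pld6 and Tdrkh were called in none of these steps, at 0.17 and 0.20 from EpiLC to day 6.

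Over the list, 4 of 6 tested members were called from EpiLC to day 2 (1 higher and 3 lower), beside 46.3% of 15255 genes (24.1% higher and 22.1% lower). From day 2 to day 4, 2 of 6 were called and both were higher, beside 23.0% (11.1% higher and 11.9% lower). From day 4 to day 6 limma called 0 members, beside 6.88% of all genes (3.49% higher and 3.38% lower), while 1 member had an unadjusted p under 0.05 and edgeR and DESeq2 called 0. From EpiLC to day 6, 3 of 6 were called (Piwil2 higher, Tdrd1 and Mael lower), beside 54.1% (27.6% higher and 26.5% lower). The members' medians were -0.38, 0.31, -0.08 and 0.18 over these 4 comparisons, beside 0.01, -0.01, 0.00 and 0.01 over all genes.

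Asz1, Tdrd9 and Piwil1, which were also untested, had few reads in these lines. Asz1 had no read in any of the 6 EpiLC and day 2 libraries, where the floor of 3 reads allows a CPM of up to 0.412 to 0.462, and at most 4 reads in a later library. Tdrd9 had 0 to 7 reads and Piwil1 0 to 8 reads in each of the 12 libraries. Among all 22 libraries of cultured cells, Piwil1 did not exceed 1.47 CPM.

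**Figure D4:**
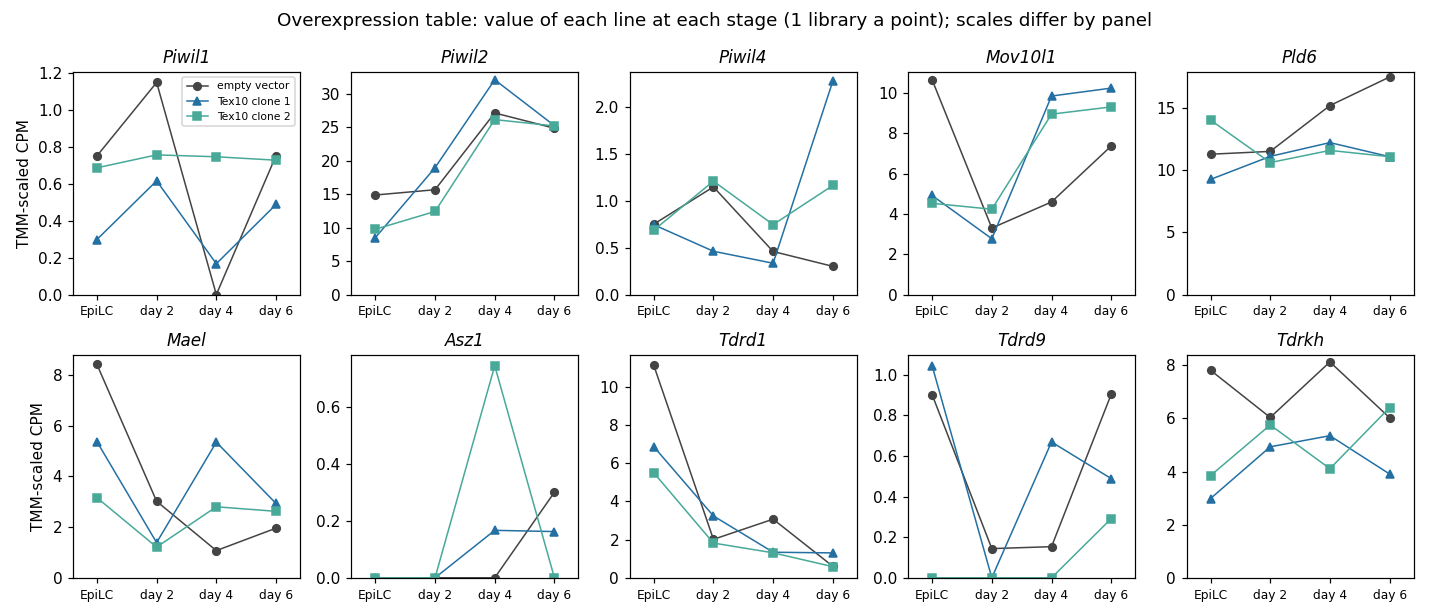
CPM of the 10 members in the empty-vector line (grey circles) and Tex10 overexpression clones 1 (blue triangles) and 2 (green squares), by stage, with 1 library at each point; each panel has its own scale from 0. Piwil2 is higher at day 6 (24.8 to 25.2) than in EpiLCs (8.4996 to 14.9) in all 3 lines, and Tdrd1 starts between 5.49 and 11.1 and ends between 0.582 and 1.30.

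The step from EpiLC to day 2 was thus measured in both tables, which differ in cell lines, in solvent and in library kit. The vector lines also include the Tex10 overexpression clones, and these differences cannot be told apart. The kits were matched to the samples here through the series design text. By that reading an Ovation Mouse kit was used for the dTAG13 and testis samples and a Universal Plus mRNA kit for the vector lines. Of 2754 genes called in both, 232, or 8.42%, had opposite directions. Among members and other pathway genes, 5 were called in both. Piwil2 was higher in both and Dnmt3l and Tcfl5 lower in both, whereas Mov10l1 (0.98 in the dTAG13 controls and -0.72 in the vector lines) and Rnf17 (0.63 and -0.98) went opposite ways. The early germ cell markers summed to 72.3 CPM in empty-vector EpiLCs and 322 CPM at day 2. In the clones they summed to 65.8 to 72.0 CPM in EpiLCs and 386 to 390 CPM at day 2. The sums in the dTAG13 controls were 82.6 to 85.4 and 257 to 271 CPM. Of the other pathway genes, 14 of 16 tested were called from EpiLC to day 2 in the vector lines, 4 higher and 10 lower (46.3% of all genes), the widest being Dnmt3l at -3.77, Exd1 at 1.27, Tdrd12 at -1.23, Gpat2 at -1.11 and Rnf17 at -0.98.

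In the vector lines 6 of 16 were called from day 2 to day 4 (3 higher and 3 lower), beside 23.0% of all genes, the widest being Tdrd5 at -1.40, Tcfl5 at -1.39, Dnmt3l at 1.09, Btbd18 at 0.90 and Tdrd12 at -0.87. From day 4 to day 6 there were 4 of 16 (3 higher and 1 lower), beside 6.88%, namely Btbd18 at 1.04, Dnmt3l at 1.03, Tcfl5 at 0.62 and Tex15 at -0.46. From EpiLC to day 6 there were 9 of 16 (3 higher and 6 lower), near the 54.1% of all genes. The widest in that last comparison were Tdrd12 at -2.22, Tcfl5 at -1.66, Dnmt3l at -1.65, Btbd18 at 1.44 and Tdrd5 at -1.04. Btbd18 encodes a chromatin factor for pachytene piRNA transcription, and Tcfl5 a helix-loop-helix factor that works with MYBL1.

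The third question was whether dTAG13 treatment, meant to deplete TEX10, changed the members in PGCLCs. At day 2 only Tdrd1 was called, and it was higher with dTAG13. At day 4 Mov10l1, Pld6 and Tdrkh were called, and all were lower. Neither Piwil2 nor Piwil4 was called at either day.

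At day 2 Tdrd1 was 2.26 and 3.257 CPM with DMSO and 6.99 and 5.22 CPM with dTAG13. The groups did not overlap, with 18 and 24 reads against 45 and 39. Its log2 fold change was 0.92 ± 0.32 (limma adjusted p = 0.0307), and 5 of 12 alternatives ended the call, among them DESeq2 (adjusted p = 0.0760) and leaving out DMSO replicate 1 (adjusted p = 0.212) or dTAG13 replicate 1 (adjusted p = 0.178). In the authors' deposited table Tdrd1 had a log2 fold change of 1.14 with an FDR of 0.144. At day 4 Tdrd1 was 1.83 and 0.896 CPM with DMSO and 1.47 and 2.38 CPM with dTAG13, overlapping and not called.

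At day 4 Mov10l1 was 8.48 and 7.77 CPM with DMSO and 2.64 and 4.29 CPM with dTAG13. Both treated libraries were below both controls and within the range of day 2 and EpiLC values. Mov10l1 fell by 1.06 ± 0.28 (limma adjusted p = 0.00435), a call lost without dTAG13 replicate 1 (-0.79, adjusted p = 0.0693). Pld6 was 9.77 and 9.66 CPM with DMSO and 6.16 and 2.22 CPM with dTAG13, the treated libraries being far apart. It fell by 1.16 ± 0.31 (limma adjusted p = 0.00468), but by 0.58 (adjusted p = 0.160) without dTAG13 replicate 2. Tdrkh was 1.93 and 2.69 CPM with DMSO and 0.587 and 0.477 CPM with dTAG13, with 18 and 27 reads against 4 and 3. It fell by 1.10 ± 0.36 (limma adjusted p = 0.0176), and the call was lost in 4 of 12 alternatives, among them leaving out either dTAG13 library (adjusted p = 0.0522 and 0.0783) or DMSO replicate 2 (adjusted p = 0.106). Without DMSO replicate 2, the library that stood apart, Mov10l1 at -1.11 (adjusted p = 0.0152) and Pld6 at -1.16 (adjusted p = 0.0201) were still called. Oaz3, which shares exons with Tdrkh, had no more than 0.311 CPM in any library of this table. In the authors' deposited table these 3 genes had log2 fold changes of -1.23 (FDR 0.0185) for Mov10l1, -1.20 (FDR 0.0137) for Pld6 and -2.09 (FDR 0.0231) for Tdrkh.

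Piwil2 was 12.6 and 12.04 CPM with dTAG13 at day 2 and 15.7 and 16.7 CPM at day 4, next to 15.7 and 14.7 CPM and 14.2 and 16.7 CPM with DMSO. Its log2 fold changes of -0.28 (95% interval from -0.71 to 0.14) and 0.07 (from -0.36 to 0.49) did not pass the test. Piwil4 was 3.89 and 2.94 CPM with dTAG13 at day 2 and 1.91 and 1.27 CPM at day 4. Its log2 fold changes were 0.34 (from -0.35 to 1.03) and -0.22 (from -0.91 to 0.47), and neither passed the test.

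**Figure D5:**
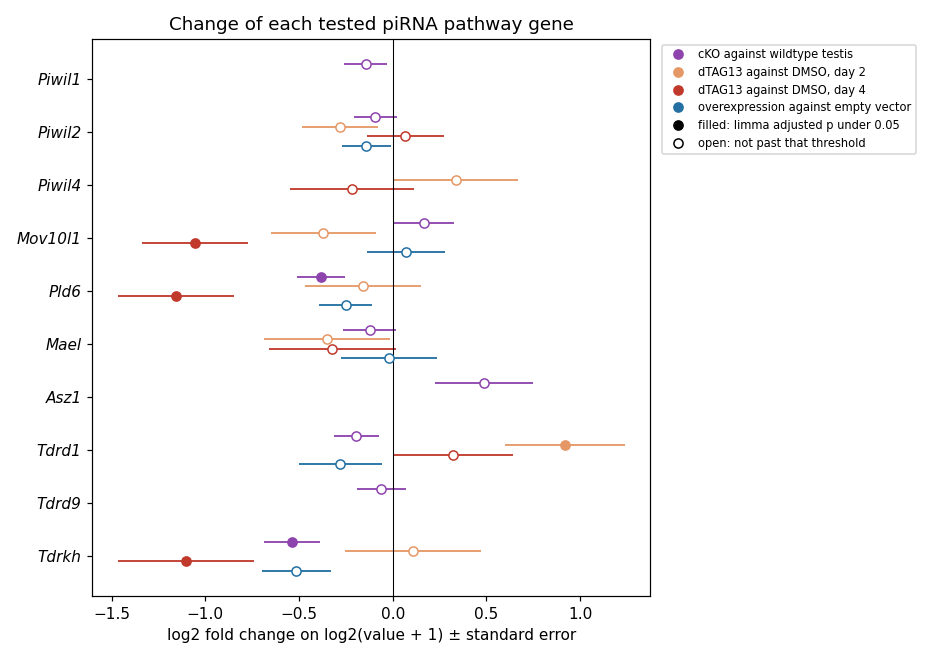
Log2 fold change on log2(CPM + 1) with its standard error for each tested member in testis (purple), at day 2 and day 4 of dTAG13 treatment (orange and red) and in the overexpression clones (blue); filled symbols had a limma adjusted p under 0.05. Filled symbols stand left of 0 for Mov10l1, Pld6 and Tdrkh at day 4 and for Pld6 and Tdrkh in testis, and right of 0 for Tdrd1 at day 2 only.

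At day 2, 1 of 7 tested members was called, beside 33.6% of all genes (13.7% higher and 19.9% lower). At day 4, 3 of 7 were called, all lower, beside 41.8% (15.8% higher and 26.0% lower). The members' median log2 fold change was -0.16 at day 2 and -0.32 at day 4, beside -0.09 and -0.13 over all genes. With median-ratio scaling the median over all genes was -0.01 and -0.03, and the calls split into 2726 higher and 2516 lower at day 2 and 3180 and 3286 at day 4, in place of 2269 and 3308 at day 2 and 2625 and 4320 at day 4. Under that scaling Mov10l1, Pld6 and Tdrkh remained called at day 4, at -0.96, -1.06 and -1.04, and Tdrd1 at day 2, at 0.99. The interaction of dTAG13 with day, the test of a difference between day 4 and day 2, was called by limma for 0 members, beside 1.25% of all genes (0.771% higher and 0.482% lower). At an unadjusted p under 0.05 there were 2 members, Tdrkh at -1.21 and Pld6 at -0.998, and edgeR and DESeq2 called 0. The early germ cell marker sum was 298 CPM in both dTAG13 libraries at day 4, next to 296 and 328 CPM with DMSO, with 2 of 9 markers called higher and 3 lower, and at day 2 it was 227 to 244 CPM next to 257 to 271 CPM, with 1 called higher and 3 lower. Other marker lists moved with dTAG13 as well. They are named for testis cells and do not identify cell types in these cultures. In untreated EpiLCs the spermatogonial list already summed to 774 to 847 CPM, the Sertoli list to 111 to 113 CPM and the peritubular list to 3.55 to 3.88 CPM. The spermatogonial sum was 900 to 917 CPM with DMSO and 673 to 681 CPM with dTAG13 at day 2 (5 of 7 tested called lower), and 913 to 927 and 675 to 706 CPM at day 4 (4 of 7 called lower). The Sertoli sum was 26.8 to 28.1 and 43.8 to 52.2 CPM at day 2 (2 of 5 tested called higher), and 12.6 to 14.5 and 28.7 to 32.3 CPM at day 4 (3 of 5). The peritubular sum was 16.2 to 29.0 and 52.2 to 59.9 CPM at day 2 (1 of 3 tested called higher), and 8.07 to 8.27 and 62.3 to 105 CPM at day 4 (2 of 3). The part of these lists in the members' values was not tested.

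Among the other pathway genes, 6 of 17 were called at day 2, 5 higher and 1 lower, and 7 of 17 at day 4, 4 higher and 3 lower, both near the 33.6% and 41.8% of all genes. Tdrd7, Mybl1, Dnmt3l and Tex15 were called higher at both days. Mybl1 was 27.4 and 34.6 CPM with DMSO and 72.7 and 80.8 CPM with dTAG13 at day 2, and 35.5 and 36.6 CPM and 90.0 and 97.1 CPM at day 4 (log2 fold change 1.35, limma adjusted p = 4.89e-08). Tdrd7 was 1.89 and 1.22 CPM with DMSO and 8.55 and 8.43 CPM with dTAG13 at day 2, and was higher by 2.12 at day 4 (limma adjusted p = 4.05e-06). Dnmt3l was higher by 0.99 at day 2 and by 1.72 at day 4, and Tex15 by 0.91 and 1.08. Btbd18 (0.91) and Morc1 (-0.54) were called at day 2. The genes called lower at day 4 were Gpat2 at -0.79, Stk31 at -0.71 and Tdrd12 at -0.49, each known for a role in piRNA production or in germ granules. In the authors' deposited table Stk31 had an FDR of 0.0213, Gpat2 of 0.136 and Tdrd12 of 0.146. At day 4 edgeR and DESeq2 each called 5 of the 17 genes. Piwil1, a target of MYBL1 in spermatocytes, was 0.622 and 0.268 CPM with dTAG13 at day 2 and 1.47 and 0.159 CPM at day 4, with 1 to 10 reads in each library.

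The last question was whether raised Tex10 changed the members. With the stage as a term and the 4 empty-vector libraries set against 8 clone libraries, limma called 0 of 6 tested members, beside 8.76% of all genes (4.54% higher and 4.22% lower). At an unadjusted p under 0.05 there was 1 member, and edgeR and DESeq2 called 0. That member, Tdrkh, was 7.81, 6.03, 8.12 and 6.02 CPM in the empty-vector line from EpiLC to day 6. Clone 1 was lower at each stage, from 2.98 to 5.35 CPM, and clone 2 was lower at all but day 6, from 3.85 to 6.41 CPM, giving a log2 fold change of -0.51 ± 0.19 (limma adjusted p = 0.0840). Piwil2 was at -0.14 (95% interval from -0.41 to 0.12), Pld6 at -0.25, Tdrd1 at -0.28, Mael at -0.02 and Mov10l1 at 0.07. The members' median was -0.20 beside 0.01 over all genes. Of the other pathway genes, 2 of 16 were called (8.76% of all genes), Gpat2 higher by 0.59 (limma adjusted p = 0.0169) and Tdrd12 higher by 0.40 (limma adjusted p = 0.0368). These are 2 clones and 1 control line, and stages of a line are not separate replicates of it.

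The members did not move as a unit over the 12 libraries of vector lines. The Pearson correlation of each tested member with the mean profile of the 6 was lowest for Tdrd1, at 0.09, and highest for Mov10l1, at 0.69, the members themselves being part of that mean. Among 11655 other genes with a mean of at least 5 CPM, the 5 most like the mean profile were Zfyve1 (0.87), Mfn2 (0.84), Dync2i1 (0.84), BC024978 (0.83) and Gm20939 (0.83). Over the 10 libraries of the dTAG13 table the 4 of these that were listed had correlations of -0.67, -0.01, -0.12 and 0.08 with the members' mean there. These values describe libraries that share lines and stages.

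For each tested member, the median log2 fold change of the 20 tested genes on either side lay between -0.28 and 0.19 over the testis, dTAG13 and overexpression comparisons. The lowest were in testis, around Piwil2 (-0.28) and Mael (-0.27), each below that member's own change (-0.09 and -0.12). At day 4 of dTAG13 treatment the neighbours' median was -0.03 for Mov10l1, 0.19 for Pld6 and -0.09 for Tdrkh.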

How the data were processed

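RNA-seq values of 26 libraries come from 3 deposited tables. Per the submitters' processing notes, Bowtie2 2.3.4.3, SAMtools 1.9, HTSeq 0.11.2 and edgeR 3.26.8 were used with the build mm10; their order, the filters and the strand setting are not given in the sources used here. The values deposited by the authors are a TMM-scaled signal (CPM over a scaled library size), and the low values of every library, on which this was checked, were whole multiples of 1 read within a tolerance of 0.1. In day 4 DMSO replicate 2, where 1 read is 0.0996 CPM, the check cannot tell whole reads from rounding. Its reads were recovered in the same way as those of the other libraries. The authors' log2 fold changes and FDR p-values, deposited beside them, were copied and not recomputed. The tables were normalized separately, so tests stay within a table. Libraries held 5055362 to 8564563 reads, which sets the detection floor of 3 reads and its counting error. The 95% intervals of fold changes are limma's and rest on the spread between libraries.

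Samples were grouped by their labels. Each comparison was tested with limma 3.58.1 (R 4.3.3) with a mean-variance trend on log2(value + 1), over genes with a table mean of at least 1, with Benjamini-Hochberg adjustment over all genes tested and a threshold of 0.05. The dTAG13 fits hold all 10 libraries, the stage fits of the vector lines have the line as a term and the overexpression fit has the stage. Alternatives were a pseudocount of 0.1, no filter, a filter of 5, median-ratio scaling, no trend, edgeR 4.0.16 and DESeq2 1.42.0 on recovered reads, only the groups compared, a replicate block and leaving out each library or line. A crossed block and the testis counts without Tdrkh were added after seeing the data. The code was tested on simulated data. Replicate numbers are not said to pair libraries.

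All 10 members are described. From the list of 22 other pathway genes, up to 5 called genes with the largest absolute log2 fold change were named per comparison, and other genes of that list were named after their values were seen. Members and lists were chosen with earlier results of these data known. Positions and exon lengths are from GENCODE M21 and promoters from RefSeq, both on GRCm38, the assembly that mm10 names.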

Additional observations from a re-analysis of the deposited data

Results flagged for a closer look

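Between EpiLC and day 2, 9 genes had all 3 vector lines moving one way and the controls of the dTAG13 experiment moving the other. They were the members Mov10l1 (log2 fold change -0.72 in the vector lines) and Tdrd1 (-1.37), and the other pathway genes Ddx4 (-0.54), Tdrd12 (-1.23), Rnf17 (-0.98), Stk31 (-0.71), Pnldc1 (-0.49), Fkbp6 (-0.81) and Morc1 (-0.59). In the dTAG13 controls both day 2 libraries lay above both EpiLC libraries for each of them, but only Mov10l1 and Rnf17 were called there. Of 14388 genes tested in both tables, 1386 (9.63%) moved oppositely by the same reading, next to 9 of 22 members and pathway genes, which were chosen with earlier results known. The difference between the tables was not tested, since they were normalized separately and differ in cell line, solvent, kit and Tex10 overexpression.

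In the vector lines 3 members had both overexpression clones below the empty-vector line at one stage and above it at another. Mael stood at a mean log2 difference of -0.87 in EpiLCs and 1.24 at day 4, Mov10l1 at -1.03 and 0.89 at the same stages, and Piwil2 at -0.65 in EpiLCs and 0.020 at day 6. With 1 empty-vector library a stage, the change between stages was not tested.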

How the results depend on the processing

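Over 81 results for single members, 962 alternative analyses gave 871 with the direction and call of the reported value, 53 that lost a call, 3 that gained one and 35 that changed sign. None of the sign changes touched a called value. The cause of the shifts below was not tested. Low counts limit most members in culture, and 2 libraries a group limit all comparisons but those of the vector lines.

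The filter and the variance trend moved several counts of all genes. From day 2 to day 4 with DMSO (916 genes called) the count was 341 with no filter, 445 with no trend and 560 with only the groups compared. The interaction of dTAG13 and day (208) had 16 with no filter and 0 with no trend. With no trend the vector lines had 2238 from day 2 to day 4 (in place of 3509), 276 from day 4 to day 6 (in place of 1049) and 431 for overexpression (in place of 1337), and testis had 2135 (in place of 6016). With no filter the vector lines had 476 from day 4 to day 6 and overexpression had 642.

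With 1 library or line left out, the genes called ranged from 2471 to 3064 for EpiLC to day 2 with DMSO (4347 with all libraries), from 425 to 1108 for day 2 to day 4, from 3762 to 5725 for EpiLC to day 4 (5792 with all), from 3615 to 4190 for dTAG13 at day 2 (5577 with all) and from 45 to 363 for the interaction. They ranged from 1569 to 4078 for day 2 to day 4 and from 256 to 1429 for day 4 to day 6 in the vector lines, from 420 to 444 for overexpression and from 3199 to 6119 in testis.

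The members called from EpiLC to day 2 with DMSO (3) were 1 with no filter and 1 to 2 with a library left out. From EpiLC to day 4 the members called also changed with a library left out. Without day 4 DMSO replicate 1, Tdrd9 entered the tested genes. Its day 4 value then rested on the 17 reads of replicate 2 alone, the library that stood apart. At day 2 of dTAG13 (1) there were 0 with a pseudocount of 0.1, no filter, a filter of 5 or DESeq2, 2 with only the groups compared, and 0 to 1 with a library left out. With only the groups compared, the added member was Tdrd9, which passed the filter only through its dTAG13 values. At day 4 (3) there were 1 to 3. In the vector lines, EpiLC to day 2 (4) had 2 with no filter, a filter of 5 or no trend and 1 to 3 with a line left out. Day 2 to day 4 (2) had 1 with no filter or no trend and 1 to 3 with a line left out. EpiLC to day 6 (3) had 1 with a filter of 5 and 2 to 3 with a line left out. A filter of 5 removed Tdrd1 (mean 2.68 CPM) from the dTAG13 table before any test. It also removed Mael (3.27 CPM) and Tdrd1 (3.23 CPM) from the vector lines, so the counts with that filter could not include them. Testis (2) had 0 with no trend, 1 with DESeq2, 1 without Tdrkh and 1 to 2 with a library left out.

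Signs changed in members that were not called. From day 2 to day 4 with DMSO, Piwil2 went to -0.018 with median-ratio scaling, -0.014 with edgeR and -0.016 with DESeq2. With a pseudocount of 0.1, Pld6 from day 4 to day 6 in the vector lines was at -0.00047 and Mael under overexpression at 0.018. The other sign changes came from leaving out a library or line, where values ran over these ranges. From day 2 to day 4 with DMSO they were -0.092 to 0.13 for Piwil2, -0.67 to 0.24 for Piwil4, -0.39 to 0.17 for Mael and -0.55 to 0.13 for Tdrkh, and from EpiLC to day 4 -0.24 to 0.33 for Tdrd1. For dTAG13 at day 2 they were -0.83 to 0.12 for Mael and -0.47 to 0.69 for Tdrkh, at day 4 -0.045 to 0.18 for Piwil2 and -0.67 to 0.24 for Piwil4, and in the interaction -0.45 to 0.51 for Mael. In the vector lines they were -0.17 to 0.13 for Pld6 from EpiLC to day 2, -0.087 to 1.10 for Mael, -0.57 to 0.072 for Tdrd1 and -0.15 to 0.24 for Tdrkh from day 2 to day 4, -0.094 to 0.066 for Pld6, -0.38 to 0.22 for Mael and -0.37 to 0.082 for Tdrkh from day 4 to day 6, -0.039 to 0.41 for Pld6 and -0.013 to 0.46 for Tdrkh from EpiLC to day 6, and -0.22 to 0.18 for Mael under overexpression. In testis they were -0.34 to 0.091 for Mael and -0.13 to 0.011 for Tdrd9. The log2 ratio of Piwil1 to Piwil2 differed by -0.17 to 0.06 with a library left out and by -0.05 with a pseudocount of 0.1. The planned ratio of Piwil1 to Piwil4 was not run, since the testis table does not list Piwil4.

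Under the replicate block, which adds the number as a term, the genes and members called were 4247 and 3 from EpiLC to day 2, 902 and 0 from day 2 to day 4, 5735 and 3 from EpiLC to day 4, 5507 and 1 at day 2 of dTAG13, 6894 and 3 at day 4, 201 and 0 in the interaction, and 7185 and 2 in testis. Deviations of same-numbered libraries correlated between -0.128 and 0.118. The crossed pairing of EpiLC with day 4, fitted on those groups alone, called 6436 genes and 3 members. Without the line as a block in the vector table, the genes and members called were 6321 and 3 from EpiLC to day 2 (Mov10l1 lost its call, adjusted p = 0.0552), 2552 and 2 from day 2 to day 4, 498 and 0 from day 4 to day 6, and 7614 and 2 from EpiLC to day 6 (Mael lost its call, adjusted p = 0.0614). The block changed no other call of a member.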
